A study of Mus musculus with 10 samples.

Results

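The genes described here respond to sugar in the liver and are known or proposed targets of the transcription factor ChREBP, but take no direct part in building fatty acids. They were followed in whole mouse liver. They were Rgs16, Txnip, Arrdc4, Klf10, Bhlhe40, Khk, Gckr, G6pc, Gpd1 and Slc2a2, and they made up 10 of the 19938 genes tested. They were listed by name, with earlier results of these data known. Each of them was read by 1 array feature that the array annotation gave to that gene alone. The livers came from male C57BL/6J mice that were 8 weeks old when an adenovirus carrying either GFP, the control protein, or Phf2, a histone demethylase that acts on dimethylated lysine of histone H3, was injected into the tail vein. Tissue was taken in the fed state 3 weeks later from 5 mice of each group, with 1 Affymetrix expression array per mouse, so both groups carried the virus and differed by its cargo. The study left out mice that did not overexpress the delivered gene, and the tissue read was whole liver with all its cell types. Values below are log2 RMA values, a normalised brightness on a log scale where a step of 1 is a doubling, and they were compared between livers for the same gene and never between genes.

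ChREBP, encoded by Mlxipl, is a transcription factor that becomes active when sugar metabolites build up in the hepatocyte, and it binds DNA with its partner Mlx at the carbohydrate response element, a pair of E-box-like half-sites. Its best known targets in the liver are pyruvate kinase and the enzymes of fatty acid synthesis. The genes described here have other roles: brakes on signalling and glucose uptake (Rgs16, Txnip, Arrdc4), transcription factors of feedback and of the clock (Klf10, Bhlhe40), and proteins that carry or process glucose, fructose and glycerol phosphate (Slc2a2, Gckr, Khk, G6pc, Gpd1).

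The feature for Phf2 itself did not separate the groups, so it gave no check of the labels. It read 6.501, 6.54, 6.53, 6.32 and 6.34 in the arrays labelled GFP 1 to 5 and 6.31, 6.27, 6.58, 6.45 and 6.37 in those labelled Phf2 1 to 5, a log2 difference of -0.05 (SE 0.08, adjusted p = 0.751, limma). The study's expression plasmids were cloned from human cDNA, and whether this mouse feature reads the delivered sequence is not stated in the sources used here. The 2 groups are therefore called livers labelled GFP and livers labelled Phf2, and every direction below rests on those labels. The 10 arrays had similar medians over all features (5.06 to 5.18) and correlated at 0.978 to 0.993 with each other, and no array held the values of another. Features of pancreatic genes, by contrast, varied widely within both groups: the mean of 12 pancreatic markers was 11.2 in GFP replicate 1, 9.65 in Phf2 replicate 2 and 8.97 in Phf2 replicate 3, and between 5.63 and 7.91 in the other 7 arrays. None of the 12 passed the test between the groups.

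The short promoter windows searched here differed among these genes in the E-box motifs they held. Of the 10 members, 7 had a window before the gene's start among the RefSeq promoters (build GRCm38.p6), and the 250 bases before the start were searched for the E-box CACGTG, which reads the same on both strands, and for a pair of half-sites, each CACGTG with at most 1 base changed and 5 bases between them, the layout of a carbohydrate response element. CACGTG was found in 1978 of 32851 windows of all genes (6.02%) and the paired half-sites in 108 (0.329%). Among the members, Txnip held the paired half-sites, Arrdc4 and Khk held CACGTG, and Rgs16, Gckr, G6pc and Slc2a2 held neither in this window. Klf10, Bhlhe40 and Gpd1 had no window and were not searched. Sequence farther from the start was not read for any gene. The sequences shown are those of the member with the pair, of Arrdc4 as its relative, and of Rgs16 as the member with the largest difference between groups, each over the whole 250 bases up to the start. They are followed by 30 bases around the match in Khk. The same is shown, from outside the members, for Pklr, the pyruvate kinase gene with the textbook carbohydrate response element before its liver start. All are written 5′ to 3′ on the strand of the gene, and capitals mark the matched bases, which describe the letters and not a bound site. Txnip lies at chr3:96557707-96557956 on the plus strand, with the pair 85 to 69 bases before the start.
Txnip: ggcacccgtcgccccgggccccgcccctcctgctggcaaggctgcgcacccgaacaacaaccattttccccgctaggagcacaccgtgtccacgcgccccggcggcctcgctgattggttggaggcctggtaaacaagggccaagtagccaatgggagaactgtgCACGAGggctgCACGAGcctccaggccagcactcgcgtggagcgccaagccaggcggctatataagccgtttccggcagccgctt
Arrdc4 lies at chr7:68749239-68749488 on the minus strand, with CACGTG 193 to 188 bases before the start.
Arrdc4: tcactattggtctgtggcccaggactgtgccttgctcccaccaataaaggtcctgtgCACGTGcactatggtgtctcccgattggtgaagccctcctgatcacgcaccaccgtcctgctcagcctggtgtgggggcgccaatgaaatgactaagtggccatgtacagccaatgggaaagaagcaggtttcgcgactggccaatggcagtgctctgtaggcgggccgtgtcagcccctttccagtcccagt
Rgs16 lies at chr1:153740103-153740352 on the plus strand, with no match to mark.
Rgs16: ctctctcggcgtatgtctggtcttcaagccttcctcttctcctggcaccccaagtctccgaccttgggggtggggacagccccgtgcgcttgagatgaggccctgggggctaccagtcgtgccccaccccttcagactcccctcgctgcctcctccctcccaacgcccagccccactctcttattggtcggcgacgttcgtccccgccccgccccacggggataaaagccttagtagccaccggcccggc
Khk is shown at chr5:30921476-30921505 on the plus strand, with CACGTG 71 to 66 bases before the start.
Khk: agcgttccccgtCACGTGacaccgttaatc
Pklr is shown at chr3:89136447-89136476 on the plus strand, with the pair 170 to 154 bases before its second listed start.
Pklr: ggacgcCACGGGgcactCCCGTGgttcctg

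In livers labelled Phf2, 4 of the 10 genes were higher and none lower, and the other 6 did not pass the test. A gene passed when limma's adjusted p, computed over all 19938 genes, was under 0.05. Over all genes, 5.43% were higher and 4.24% lower by this test (9.67% in either direction), so 4 of 10 was a larger share than among all genes, and the median log2 difference was 0.32 over the members and -0.01 over all genes tested. Because the members were listed with earlier results of these data known, these shares describe the 10 genes and do not test them as a set. The 4 that rose were Rgs16, Gpd1, Khk and Klf10, in that order of size. In Rgs16, Gpd1 and Khk every liver labelled Phf2 lay above every liver labelled GFP, a separation that 9.08% of all genes showed in one direction or the other. Under the study's own kind of threshold, at least 1.5-fold with an unadjusted p under 0.05, Rgs16 and Gpd1 were counted, against 3.54% of all genes. In whole liver, a change in the number of cells of one type and a change in the RNA of each cell cannot be told apart.

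**Figure D1:**
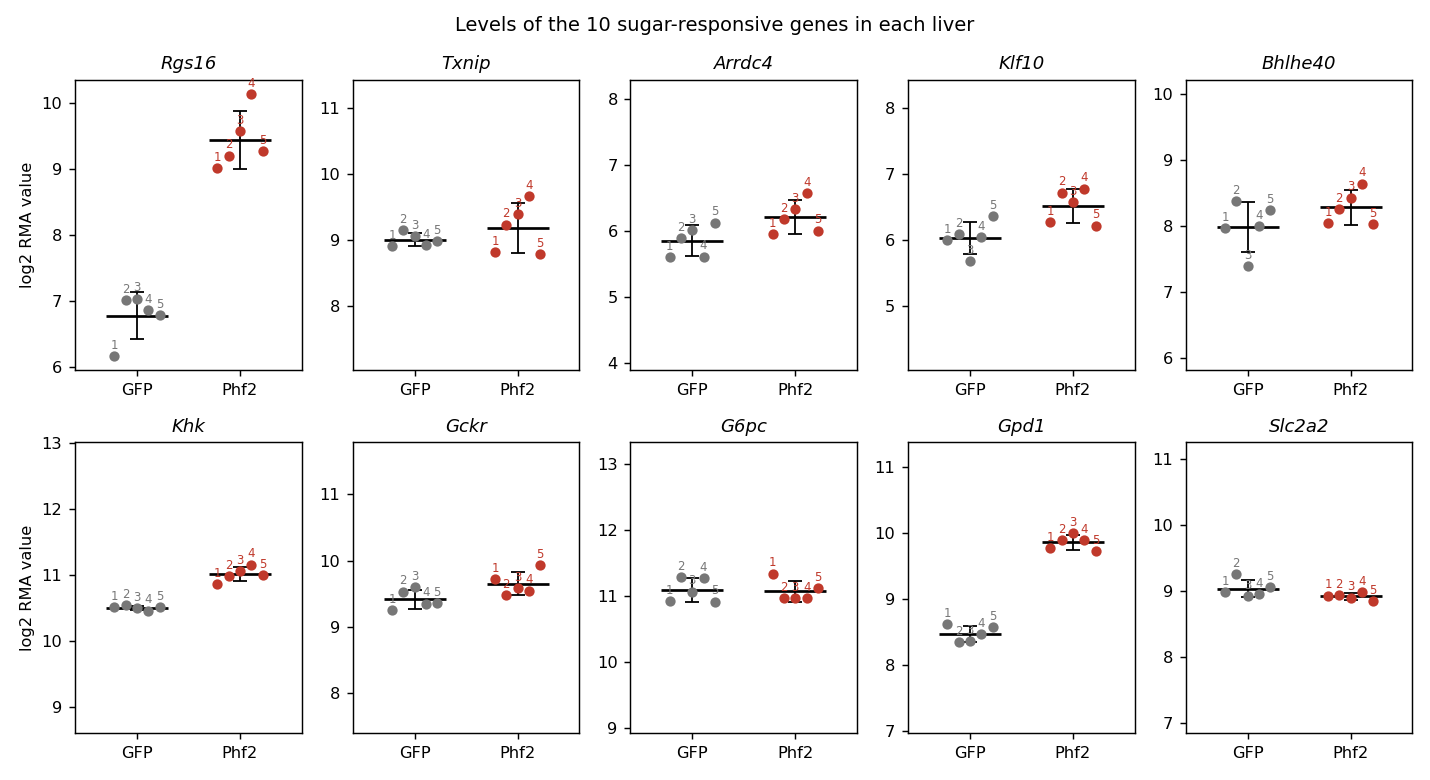
Log2 RMA value (vertical axis) of each of the 10 genes in each liver, for the 5 livers labelled GFP (grey) and the 5 labelled Phf2 (red), with the replicate number beside each point, the group mean as a line and the SD as a bar; all panels span the same number of log2 units. The groups stand fully apart for Rgs16, Gpd1 and Khk, and overlap for the other 7 genes.

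Rgs16 speeds the shut-off of G proteins and so limits signalling by receptors coupled to them. It had the largest difference of the 10 genes. Its values were 6.17, 7.02, 7.04, 6.87 and 6.79 in the livers labelled GFP 1 to 5 and 9.02, 9.20, 9.58, 10.14 and 9.27 in those labelled Phf2 1 to 5. All 5 livers labelled Phf2 were higher than any labelled GFP, with 1.98 log2 units between the nearest pair, and Phf2 replicate 4 was the highest of all. The group means were 6.78 ± 0.36 and 9.44 ± 0.44 (SD, n = 5 each), a log2 difference of 2.67 (SE 0.21, adjusted p = 1.24e-05, limma), or 6.35-fold. GFP replicate 1, the array richest in pancreatic markers, was the lowest, and over all settings tried, those without that array among them, the difference stayed between 2.49 and 2.77.

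The RGS family as a whole did not share this pattern. Of the 15 of 16 listed relatives that were measured, 2 rose, none fell and 13 did not pass the test, with a median log2 difference of 0.05. Many of those 13 read below the median over all features (5.12) in both groups, where a change is hard to see. Rgs1, a regulator found mainly in lymphocytes, went from 5.04 ± 0.40 to 6.28 ± 0.44, a log2 difference of 1.23 (SE 0.22, adjusted p = 0.00354). Rgs5, a marker of pericytes and stellate cells, went from 8.11 ± 0.11 to 8.53 ± 0.10 (log2 difference 0.42, SE 0.07, adjusted p = 0.00309). Markers of other cell types moved beside Rgs16 as well. Of 12 T and NK cell markers measured, 7 rose, Cd3g and Gzma the most (log2 difference 1.502 and 1.24, adjusted p = 0.00393 and 4.54e-04), and the mean of the list was 4.70 to 4.96 in livers labelled GFP and 5.21 to 5.72 in those labelled Phf2. Of 9 stellate markers 1 rose, which was Rgs5 itself. The part of these cells in the Rgs16 value was not tested.

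Txnip and Arrdc4 are related alpha-arrestins that hold back glucose uptake, and Txnip also binds thioredoxin. Neither passed the test. Txnip, whose promoter carries the paired half-sites, read 8.91, 9.15, 9.06, 8.92 and 8.98 in the livers labelled GFP 1 to 5 and 8.82, 9.23, 9.40, 9.67 and 8.79 in those labelled Phf2 1 to 5. Phf2 replicates 2, 3 and 4 lay above every liver labelled GFP, while replicates 1 and 5 lay below every one of them. The SD was accordingly 0.10 among livers labelled GFP and 0.38 among those labelled Phf2, and the log2 difference was 0.17 (95% interval -0.15 to 0.50, adjusted p = 0.571, limma). That value rested on single livers: it was 0.05 without Phf2 replicate 4 and 0.27 without either Phf2 replicate 1 or 5, and it was 0.06 without the 3 arrays richest in pancreatic markers.

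Arrdc4 had a larger mean difference, and Phf2 replicate 4 was again the highest liver, followed by replicates 3 and 2. Its values were 5.60, 5.89, 6.01, 5.61 and 6.13 in the livers labelled GFP 1 to 5 and 5.95, 6.18, 6.33, 6.58 and 6.00 in those labelled Phf2 1 to 5. The groups overlapped, with Phf2 replicates 1 and 5 below the higher GFP values. It differed by 0.36 on the log2 scale (95% interval 0.07 to 0.65), and with an adjusted p of 0.130 in limma it did not pass the test although the interval before adjustment lay above 0. Among 10 measured genes of the alpha-arrestin family and the thioredoxin system, only Txnrd1, a thioredoxin reductase, rose (log2 difference 0.29, adjusted p = 0.0273), none fell, and the values ran from -0.14 to 0.29.

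Klf10 and Bhlhe40 encode transcription factors, Klf10 a repressor in the feedback on glucose genes and Bhlhe40 (Dec1) a repressor that binds E-boxes and belongs to the clock. Klf10 read 6.01, 6.09, 5.68, 6.05 and 6.37 in the livers labelled GFP 1 to 5 and 6.27, 6.72, 6.57, 6.78 and 6.22 in those labelled Phf2 1 to 5. Phf2 replicates 2, 3 and 4 lay above every liver labelled GFP, and replicates 1 and 5 lay below GFP replicate 5. The log2 difference was 0.48 (SE 0.14, adjusted p = 0.0470, limma), or 1.39-fold. This call sat at the threshold: the adjusted p ran from 0.0244 to 0.374 over the settings tried, and without GFP replicate 1, 2, 3 or 4 or Phf2 replicate 2, 3 or 4 the gene no longer passed, with adjusted p between 0.0789 and 0.122.

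For Bhlhe40 the groups overlapped in part. Its values were 7.96, 8.37, 7.38, 7.99 and 8.23 in the livers labelled GFP 1 to 5 and 8.04, 8.25, 8.43, 8.64 and 8.02 in those labelled Phf2 1 to 5. Phf2 replicates 3 and 4 lay above every liver labelled GFP, GFP replicates 1, 3 and 4 lay below every liver labelled Phf2, and GFP replicate 3 was the lowest of all. The difference of 0.29 in log2 did not pass (95% interval -0.09 to 0.67, adjusted p = 0.376), and it was 0.14 without GFP replicate 3. In the lists of their relatives, changes went both ways. Of 16 Krüppel-like factors 1 rose and 3 fell, Klf6 by a log2 difference of 0.85 (adjusted p = 0.00868), Klf12 by -0.73 (0.00171 adjusted), Klf15 by -0.55 (0.00886 adjusted) and Klf9, named after its values were seen, by -0.55. Of 16 clock genes measured 2 rose and 1 fell: Nr1d1 (REV-ERB alpha) went from 6.26 ± 0.22 to 7.29 ± 0.19 (log2 difference 1.03, SE 0.12, adjusted p = 1.64e-04), Bhlhe41 (Dec2), the close relative of Bhlhe40, rose by 0.56 (adjusted p = 0.0423), and Nfil3 fell by 0.55 (adjusted p = 0.00391).

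Khk, Gckr, Slc2a2 and G6pc encode the fructose kinase, the protein that holds glucokinase in the nucleus, the main glucose carrier of hepatocytes (GLUT2) and the catalytic subunit of glucose-6-phosphatase. Of these 4 genes of sugar entry and release, only Khk passed the test, and it differed little between livers of a group. Khk read 10.52, 10.54, 10.50, 10.46 and 10.52 in the livers labelled GFP 1 to 5 and 10.87, 10.99, 11.07, 11.16 and 10.9997 in those labelled Phf2 1 to 5. The livers labelled GFP spread over less than the gap to the other group, and all livers labelled Phf2 were higher. The log2 difference was 0.51 (SE 0.06, adjusted p = 3.09e-04, limma), or 1.42-fold, with SDs of 0.03 and 0.11 (n = 5 each).

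Gckr read 9.24, 9.53, 9.59, 9.35 and 9.36 in the livers labelled GFP 1 to 5 and 9.72, 9.48, 9.58, 9.54 and 9.93 in those labelled Phf2 1 to 5. The groups overlapped, and Phf2 replicates 1 and 5, the lowest of their own group for Txnip, Arrdc4, Klf10 and Bhlhe40, were here the highest of all 10 livers. On the log2 scale the groups differed by 0.24 (95% interval 0.03 to 0.45, adjusted p = 0.162). G6pc read 10.92, 11.28, 11.07, 11.27 and 10.91 in the livers labelled GFP 1 to 5 and 11.34, 10.96, 10.97, 10.96 and 11.12 in those labelled Phf2 1 to 5. Its groups covered nearly the same range, with Phf2 replicate 1 the highest of all 10 livers. The log2 difference was -0.02 (95% interval -0.24 to 0.19, adjusted p = 0.936), and its sign changed with the setting. Slc2a2 read 8.99, 9.26, 8.93, 8.96 and 9.07 in the livers labelled GFP 1 to 5 and 8.94, 8.95, 8.91, 8.98 and 8.85 in those labelled Phf2 1 to 5. GFP replicate 2 was the highest and the rest lay close together. The log2 difference was -0.12 (95% interval -0.27 to 0.04, adjusted p = 0.385), and -0.06 without GFP replicate 2. The intervals of Gckr, G6pc, Slc2a2 and Txnip lay within a 1.5-fold change in either direction.

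The neighbours of these genes in sugar uptake and its first steps moved in part. Of 21 genes listed 15 were measured, 3 rose and none fell, with a median log2 difference of 0.16. Hk2, the hexokinase of muscle and fat that is scarce in hepatocytes, went from 5.03 ± 0.21 to 6.58 ± 0.60 (log2 difference 1.54, SE 0.23, adjusted p = 0.00128). Tkfc, the triose kinase that follows Khk in fructose breakdown, went from 8.63 ± 0.12 to 9.13 ± 0.31 (log2 difference 0.50, SE 0.13, adjusted p = 0.0307). G6pc3, the widely expressed relative of G6pc, rose by 0.42 (adjusted p = 0.00614) and was named after its values were seen. Of 13 glycogen genes measured 6 rose and 3 fell, with the branching enzyme Gbe1 (log2 difference 0.55, adjusted p = 6.98e-04) and the glycogen-binding protein Stbd1 (0.49, adjusted p = 0.00144) at one end and the glycogen-targeting phosphatase subunit Ppp1r3c (-0.57, adjusted p = 0.0335) and the phosphorylase kinase subunit Phkg2 (-0.39, adjusted p = 0.00962) at the other.

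Gpd1, the cytosolic glycerol-3-phosphate dehydrogenase, reduces dihydroxyacetone phosphate to glycerol phosphate, the backbone of triglycerides, and runs the cytosolic side of the glycerol phosphate shuttle. It was the second of the 2 genes past 1.5-fold. Its values were 8.62, 8.35, 8.37, 8.47 and 8.57 in the livers labelled GFP 1 to 5 and 9.77, 9.89, 9.99, 9.89 and 9.73 in those labelled Phf2 1 to 5. Both groups were tight, and 1.11 log2 units lay between the highest liver labelled GFP and the lowest labelled Phf2. The means were 8.47 ± 0.12 and 9.85 ± 0.11 (SD, n = 5 each), a log2 difference of 1.38 (SE 0.08, adjusted p = 1.23e-06, limma), or 2.60-fold.

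Its mitochondrial partner in the shuttle, Gpd2, rose too, from 8.11 ± 0.18 to 9.05 ± 0.24 (log2 difference 0.94, SE 0.12, adjusted p = 3.22e-04). Of 12 genes of this shuttle, of the malate-aspartate shuttle and of glycerol handling that were measured, 2 rose and 2 fell. The oxoglutarate carrier Slc25a11 was the other that rose (log2 difference 0.44, adjusted p = 0.00682). Slc25a13 (citrin), the aspartate-glutamate carrier of liver mitochondria, fell by 0.80 on the log2 scale (adjusted p = 2.32e-04), and Aqp9, the glycerol channel of hepatocytes, fell by 0.34 (adjusted p = 0.0153).

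**Figure D2:**
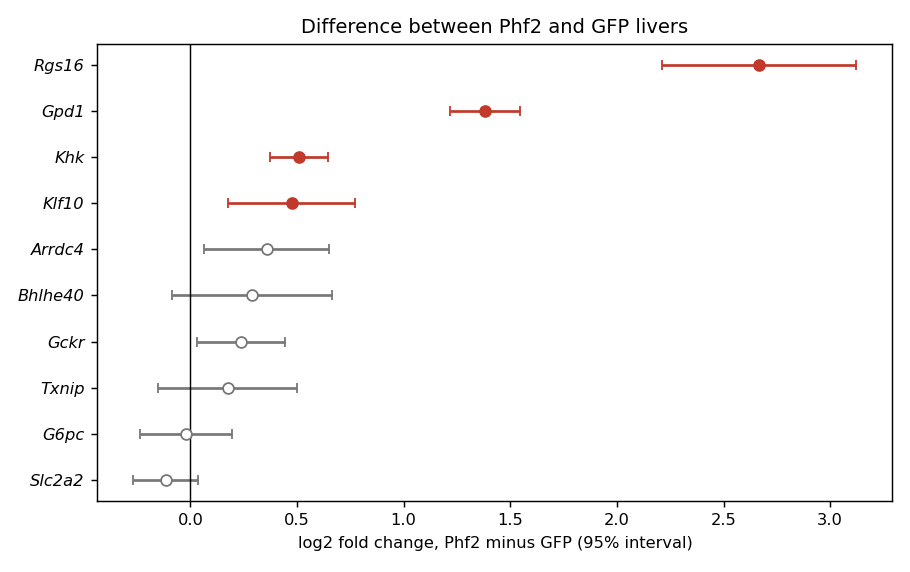
Log2 difference, livers labelled Phf2 minus livers labelled GFP (horizontal axis), for each of the 10 genes with its 95% interval, filled where limma's adjusted p was under 0.05. Rgs16 (2.67) and Gpd1 (1.38) stand far from 0, Khk (0.51) and Klf10 (0.48) nearer, and the intervals of Bhlhe40, Txnip, G6pc and Slc2a2 include 0.

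Within the group labelled Phf2 the order of the livers was alike for some of the genes and opposite for others. Phf2 replicate 4 was the highest of its group for 7 of the 10 genes (Rgs16, Txnip, Arrdc4, Klf10, Bhlhe40, Khk and Slc2a2), and replicate 5 the lowest for 5. Replicates 1 and 5 were the lowest 2 of the group for Txnip, Arrdc4, Klf10, Bhlhe40 and Gpd1, and the highest 2 for Gckr and G6pc. Mlxipl itself had replicate 4 highest and replicate 5 lowest, and Pklr had replicate 4 highest and replicate 1 lowest. Other genes outside the 10 also set replicates 1 and 5 apart. Hk2 had them lowest of the group (5.92 and 5.97) and the hepatocyte marker Cps1 had them highest (12.01 and 12.08). How many of all genes share these orders was not counted, so they are not shown to be particular to the 10 genes. Replicates 1 and 5 were also the arrays of that group with the lowest pancreatic marker means (5.63 and 5.88) and the lowest T and NK marker means (5.24 and 5.21), with replicate 4 highest for the latter (5.72). They had the highest hepatocyte marker means of the group (11.58 and 11.66), with replicate 4 lowest (11.37). Their stellate (6.84 and 6.87) and B and plasma cell means (4.76 and 4.81) were the lowest of the group. So were their macrophage (7.34 and 7.34) and bile duct means (5.71 and 5.62). Endothelial and adipocyte means did not follow this order. The part of any of these markers in the order was not tested. With the pancreatic mean as a covariate the same number of members, 4, passed the test, and without the 3 arrays richest in those markers, a setting added after seeing the data, 3 passed and Klf10 did not (log2 difference 0.38, adjusted p = 0.374).

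**Figure D3:**
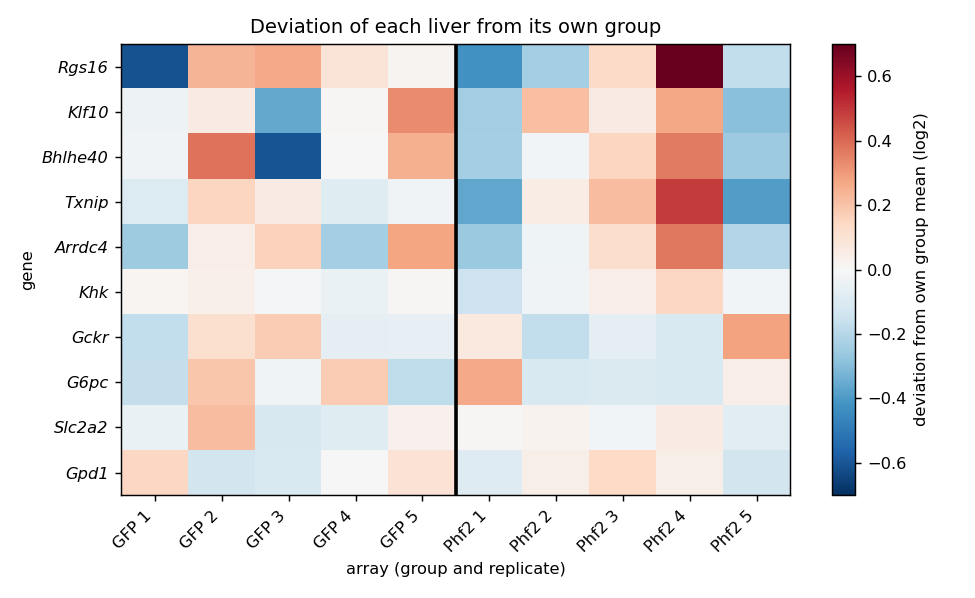
Deviation of each liver from the mean of its own group in log2 units (colour, red above and blue below) for the 10 genes (vertical axis) in the 10 arrays (horizontal axis), with a line between livers labelled GFP and livers labelled Phf2. Phf2 replicate 4 is red for Rgs16, Txnip, Arrdc4, Klf10 and Bhlhe40 where replicates 1 and 5 are blue, and for Gckr and G6pc replicates 1 and 5 are red.

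The sugar-sensing factor and its other targets give the setting of these values. Mlxipl read 8.52, 8.72, 8.76, 8.71 and 8.85 in the livers labelled GFP 1 to 5 and 9.86, 9.99, 9.97, 10.14 and 9.70 in those labelled Phf2 1 to 5. The groups were apart by 0.85 log2 units, and the difference was 1.22 (SE 0.09, adjusted p = 6.10e-06, limma), while its partner Mlx read 6.72 ± 0.16 and 6.70 ± 0.07 (log2 difference -0.02, adjusted p = 0.908). Of 10 sugar sensors and E-box binders measured, Mlxipl and Max (log2 difference 0.46, adjusted p = 0.0256) rose and none fell. The feature for Mlxipl was read as a whole, and the alpha and beta forms of ChREBP were not told apart.

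Of 10 further ChREBP targets outside lipogenesis 4 rose and 1 fell. Pklr, whose promoter pair is shown above, read 8.53, 8.76, 8.35, 8.39 and 8.46 in the livers labelled GFP 1 to 5 and 8.997, 9.33, 9.45, 9.54 and 9.17 in those labelled Phf2 1 to 5. All 5 livers labelled Phf2 were higher, and the log2 difference was 0.80 (SE 0.11, adjusted p = 6.63e-04, limma). Fgf21, the liver hormone of fasting and of sugar intake, went from 5.64 ± 0.09 to 7.10 ± 0.98 (log2 difference 1.46, SE 0.36, adjusted p = 0.0227), with Phf2 replicates 1 and 5 at 5.99 and 6.12 and the other 3 between 7.42 and 8.06. The glucagon receptor Gcgr fell by 0.35 (adjusted p = 0.00873), and the pentose phosphate enzymes Tkt and Taldo1, named after their values were seen, rose by 0.78 and 0.62.

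The lipogenic ChREBP targets had larger values: of 9 genes 6 rose and none fell, with a median log2 difference of 1.22 against 0.32 for the 10 genes here, led by the fatty acid elongase Elovl6 (2.31, adjusted p = 1.47e-06) and the lipid droplet protein Pnpla3 (1.95, adjusted p = 1.96e-06). The difference between these lists was not tested. Of 11 genes of fasting, glucagon and glucocorticoid action measured, 5 fell, 1 rose and 5 did not pass the test: the gluconeogenic enzyme Pck1 fell by 1.24 (adjusted p = 0.00168) and tyrosine aminotransferase, Tat, by 0.83 (adjusted p = 0.0407), while Pdk4, a brake on pyruvate oxidation, rose by 1.15 (adjusted p = 0.00341). G6pc, which belongs to the same fasting programme, stayed at -0.02 beside them.

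**Figure D4:**
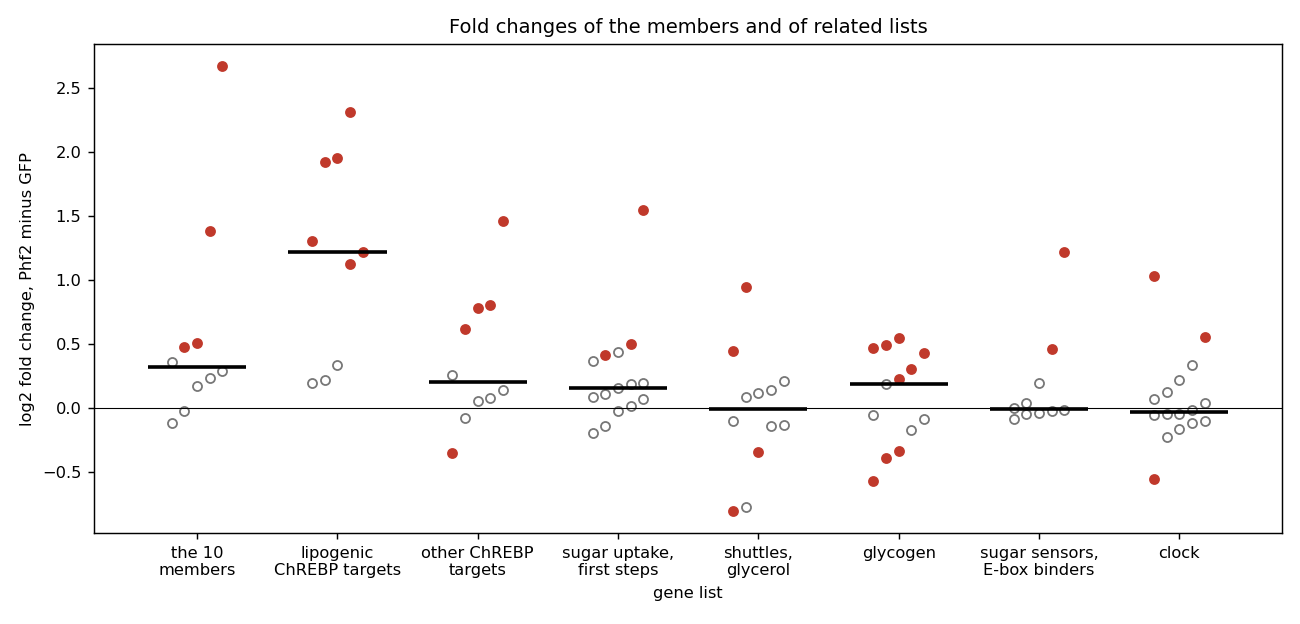
Log2 difference, livers labelled Phf2 minus livers labelled GFP (vertical axis), of every measured gene in the 10 genes described and in 7 related lists (horizontal axis), filled where limma's adjusted p was under 0.05, with the median of each list as a bar. The median is 0.32 for the 10 genes, 1.22 for the lipogenic ChREBP targets and between -0.03 and 0.20 for the other 6 lists.

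Markers of hepatocytes were bright in all arrays, which were made from liver. The mean of 7 hepatocyte markers was 11.6 to 11.8 in livers labelled GFP and 11.4 to 11.7 in those labelled Phf2, with Cps1 (log2 difference -0.57, adjusted p = 0.0320) and Apoa1 (-0.21, adjusted p = 0.0263) lower and the other 5 not past the test. All 7 log2 differences were below 0, from -0.57 to -0.01 with a median of -0.21. Among 10 macrophage markers 1 rose and 4 fell, with Lyz2 at 0.64 (adjusted p = 0.0327) and the resident Kupffer markers Cd163 and Timd4 at -1.89 and -1.59 (adjusted p = 3.82e-09 and 2.52e-04). Of 8 endothelial markers Lyve1 rose (0.51, adjusted p = 0.0211), and of 6 B and plasma cell, 5 bile duct and 5 adipocyte markers none passed the test. The genes nearest to passing in those 3 lists were Mzb1 (0.21, adjusted p = 0.0973), Krt7 (0.31, adjusted p = 0.0872) and Plin1 (-0.15, adjusted p = 0.526). How far these cell markers enter the values of the 10 genes was not tested.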

How the data were processed

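Total RNA from 10 livers (5 per group) was amplified, biotin labelled and hybridised to 1 Affymetrix Gene ST array each. The study's methods name a human array, while the feature numbers and annotation here are those of a mouse array. The labels and the methods also name different RNA kits. The authors normalised the scans with RMA and deposited 1 table of log2 values, and Partek is named in the submitters' notes. The deposited log2 values were used without further normalisation. Of 35556 features, 21789 carried 1 gene symbol, 1621 several and 12146 none. Symbols were updated through gene numbers (21698 matched), and the feature with the highest mean over all arrays stood for each of 999 genes that had several. The 19938 genes were fitted in limma 3.58.1 (R 4.3.3) with group as the only term and p-values adjusted by Benjamini-Hochberg over all of them, and the test was tried on simulated data. The number of arrays limits the precision. Labels call the samples biological replicates.

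The methods' analysis of variance, which with these 2 groups equals a plain equal-variance test per gene (the methods' t-test), other priors, array weights, a filter on dim features, quantile normalisation, median centring, all features, the mean of a gene's features, a replicate block, a pancreatic covariate, other thresholds and leaving out each array were alternatives. Outside the 10 genes, Mlxipl, Mlx and Pklr were named always, and from each list up to 2 genes that rose and up to 2 that fell most, or up to 2 with the smallest p where none passed. The members and the gene lists were chosen with earlier results of these data known. Promoter windows came from RefSeq (GRCm38.p6).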

Additional observations from a re-analysis of the deposited data

Results flagged for a closer look

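In groups of 5, the highest or lowest array lay far from the rest, by Dixon's test at its 95% level, in 6 of 112 groups of values examined, and chance alone marks about 5% of such groups. Among the members this was the value of Rgs16 in GFP replicate 1, 6.17 against 6.79 for the next lowest liver. Among listed genes it was Phkg2 in Phf2 replicate 4 (6.32, the next lowest 6.57), Rgs5 in Phf2 replicate 3 (8.70, the next highest 8.52) and Timd4 in GFP replicate 3 (8.45, the next highest 7.53). Ins2, the insulin gene of the pancreatic islet, stood out in GFP replicate 1 (8.60, the next highest 5.43) and in Phf2 replicate 2 (5.90, the next highest 5.35), which were the arrays with the highest pancreatic marker mean of their groups.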

How the results depend on the processing

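Rgs16, Gpd1 and Khk passed the test with the same sign under all 21 other settings of the fit at an adjusted p of 0.05, the one without the 3 arrays richest in pancreatic markers, added after seeing the data, included. Arrdc4, Gckr, Txnip, Bhlhe40 and Slc2a2 passed it under none. Klf10, at 0.48 on the log2 scale, no longer passed with the methods' t-test (adjusted p = 0.131), with all features (0.0968 adjusted) or with a replicate block (0.0899 adjusted), nor after quantile normalisation (0.43) or median centring (0.46), nor without the 3 pancreas-rich arrays (0.38), and it ran from 0.39 to 0.56 with each array left out. G6pc ran from -0.0884 to 0.0267 with each array left out, and was 0.000832 after quantile normalisation and 0.00618 without the 3 arrays. Adding a 1.5-fold minimum to the adjusted p left 2 members, both higher, without Khk (1.42-fold), and 662 of the 1929 genes called over all. At 1.5-fold with an unadjusted p of 0.05, 2 members and 706 genes were counted in limma, and 2 members and 694 genes with the methods' t-test. An adjusted p of 0.01 left 922, and leaving out the 3 pancreas-rich arrays left 595. The replicate numbers did not pair the samples: deviations of equal numbers correlated at -0.29 to -0.04, and the block called 3 members and 1514 genes. Centring shifted the median of all genes by -0.02.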
